A study of Homo sapiens with 6 samples.

Results

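The 10 genes described here are metallothioneins and genes of zinc handling: the metallothioneins MT2A, MT1X and MT1E, the metallothionein pseudogene MT1DP, the zinc-sensing transcription factor MTF1, the zinc exporters SLC30A1 and SLC30A5, and the zinc importers SLC39A6, SLC39A10 and SLC39A14. They were chosen by gene symbol from the 53826 entries of each expression table, with the values of the comparison below already known, so that their differences between the lines are given as a description with no test. Of the 10, 9 passed the filter of the study (a normalised read count of more than 2 TPM, which is scaled to transcript length and to the library, in at least 1 of the 6 libraries), among 13181 entries in all, and MT1E did not. MT1DP passed only through the libraries in which it was higher.

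RNA-seq was carried out on A549, a human lung adenocarcinoma cell line, transduced with a pMXs retroviral vector that carried either GFP (A549-GFP cells, the control) or the coding region of TIPARP (A549-TIPARP cells). TIPARP is an enzyme that attaches single ADP-ribose units to proteins. Both lines were stable lines of the same parent and differed by the transduced gene, and whether each was a pool or a single clone is not stated in the sources used here. Each line had 3 libraries, numbered by experiment, and nothing states that these came from separate cultures, so the spread between them may be partly technical.

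Metallothioneins are small proteins rich in cysteine that bind zinc, copper and cadmium through their thiol groups and hold zinc in a form that can be released. When free zinc rises, or cadmium enters the cell, MTF1 moves to the nucleus and binds metal response elements in the promoters of the metallothionein genes and of SLC30A1. Exporters of the SLC30 family move zinc out of the cytosol, to the outside or into organelles, and importers of the SLC39 family move it in. MT2A and MT1X are among the metallothioneins used broadly across human tissues, and glucocorticoids and oxidative stress are also known to raise MT2A.

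TIPARP itself was read first as a check of the labels. Its level was 6.79, 11.4 and 3.68 TPM in A549-GFP cells of experiments 1, 2 and 3, and 131, 90.5 and 123 TPM in A549-TIPARP cells, a mean log2 difference of 4.11. The epithelial markers of the line summed to 16957 to 33049 TPM in the A549-GFP libraries, against 28570 to 31679 TPM in A549-TIPARP cells, and all 5 endothelial markers were listed at 0 in every library. Of 6 mesenchymal markers 4 were listed at 0 and the 6 summed to 1.09 to 1.44 TPM and 1.64 to 2.56 TPM. The blood markers PTPRC and CD3E were listed at 0, and the summed level of the blood markers, nearly all of it CD68, was 29.2 to 69.1 TPM and 25.0 to 36.0 TPM. A549-GFP replicate 2 stood farthest from the others, with a root mean square deviation of 0.621 on the log2 scale against 0.185 to 0.400 in the other libraries, and its typical gene lay 0.27 above the mean library on that scale. For each of the 10 genes, a difference that turns its direction, crosses 2-fold or moves by more than 1.5 times without this library is given both ways, and genes of the lists further on can also turn direction without it.

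MT2A, MT1X, MT1E and MT1DP lie in 1 cluster on the long arm of chromosome 16 (hg38, GENCODE release 44, all on the plus strand). MT2A spans positions 56608584 to 56609497 and MT1X positions 56682470 to 56684196, each with 3 exons, and the spliced transcripts have 401 and 404 bases. MT1E lies between them at 56625475 to 56627112. MT1DP, at 56643725 to 56644765, is annotated as a transcribed unprocessed pseudogene with a spliced transcript of 150 bases. SLC30A1 is on the minus strand of chromosome 1 at 211571568 to 211579161, with 2 exons. MTF1 is on the same chromosome and strand, at 37809574 to 37859592, with 11 exons.

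The coding sequences of MT2A and MT1X are shown because they carry what makes these proteins metal binding and because they are so alike. They are the GENCODE coding sequences, from the start to the stop codon, with the codons for cysteine (TGC or TGT in frame) in capitals. MT1F, a cluster gene outside the 10, is set beside them because it was the remaining metallothionein above 2 TPM.
MT2A: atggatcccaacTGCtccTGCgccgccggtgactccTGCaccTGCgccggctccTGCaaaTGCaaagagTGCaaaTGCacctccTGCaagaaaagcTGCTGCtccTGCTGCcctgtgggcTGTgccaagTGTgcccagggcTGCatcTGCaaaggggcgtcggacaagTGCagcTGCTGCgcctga
MT1X: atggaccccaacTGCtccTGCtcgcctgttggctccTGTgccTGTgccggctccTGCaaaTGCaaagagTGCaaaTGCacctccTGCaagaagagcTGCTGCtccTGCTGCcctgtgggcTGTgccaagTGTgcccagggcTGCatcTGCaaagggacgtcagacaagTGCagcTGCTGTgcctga
MT1F: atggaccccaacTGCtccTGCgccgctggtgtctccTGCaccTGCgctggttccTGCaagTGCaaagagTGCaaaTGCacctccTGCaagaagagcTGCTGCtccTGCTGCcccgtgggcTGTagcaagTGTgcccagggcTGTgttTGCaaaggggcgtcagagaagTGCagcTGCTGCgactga
Each has 186 bases and 61 codons before the stop, and 20 of the 61 code for cysteine. The MT2A and MT1X coding sequences differ at 14 bases and are identical at 92.5% of positions. MT1F differs from MT2A at 16 bases and from MT1X at 21. The longest stretch of identical letters in the spliced transcripts was 63 bases between MT2A and MT1X, 65 between MT2A and MT1G and 96 between MT1X and MT1G. MT1DP shared no stretch longer than 21 bases with MT2A or 23 with MT1X, but 33 with MT1A. For MT1F the longest was 32 with MT2A, 53 with MT1X and 64 with MT1M. How reads that fit more than 1 gene were assigned is not stated for these tables, and the division of reads among the metallothioneins is therefore uncertain.

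The promoters of MT2A and MT1X are shown with that of SLC30A1, the exporter known as a target of the same factor, and with that of MT1H, a neighbour in the cluster that was listed at 0 in all 6 libraries. The sequences are from RefSeq (GRCh38.p14), 250 bases up to the transcription start, read along the strand of the gene. Capitals mark the core of the metal response element, TGCACNC or TGCGCNC on either strand, with overlapping matches counted once. MT2A is chr16:56608334-56608583 (+), MT1X chr16:56682220-56682469 (+), MT1H chr16:56669564-56669813 (+) and SLC30A1 chr1:211579162-211579411 (-).
MT2A: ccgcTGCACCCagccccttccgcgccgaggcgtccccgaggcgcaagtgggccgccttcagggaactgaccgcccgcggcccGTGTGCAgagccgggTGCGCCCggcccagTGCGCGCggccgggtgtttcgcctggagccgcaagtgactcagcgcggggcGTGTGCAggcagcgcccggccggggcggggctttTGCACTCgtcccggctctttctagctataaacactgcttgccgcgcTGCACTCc
MT1X: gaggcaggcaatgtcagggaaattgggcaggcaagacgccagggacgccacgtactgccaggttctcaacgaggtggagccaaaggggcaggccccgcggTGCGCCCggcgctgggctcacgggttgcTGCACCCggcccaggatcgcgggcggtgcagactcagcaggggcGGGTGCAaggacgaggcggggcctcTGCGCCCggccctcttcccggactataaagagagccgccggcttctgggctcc
MT1H: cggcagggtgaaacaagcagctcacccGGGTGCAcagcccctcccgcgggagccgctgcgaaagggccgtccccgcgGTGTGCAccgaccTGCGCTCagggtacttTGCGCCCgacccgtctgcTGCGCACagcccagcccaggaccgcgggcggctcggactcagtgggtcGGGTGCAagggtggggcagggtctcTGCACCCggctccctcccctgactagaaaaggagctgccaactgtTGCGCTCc
SLC30A1: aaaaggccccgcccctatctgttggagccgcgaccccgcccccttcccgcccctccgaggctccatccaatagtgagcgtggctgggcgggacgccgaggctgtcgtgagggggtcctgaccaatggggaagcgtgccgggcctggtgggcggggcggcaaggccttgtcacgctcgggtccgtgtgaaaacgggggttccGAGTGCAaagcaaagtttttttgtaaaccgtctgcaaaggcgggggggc
The MT2A window held 7 cores, the MT1X window 4, the MT1H window 8 and the SLC30A1 window 1. Of 35116 promoter windows of the same length, 24.8% held at least 1 core, 0.208% (73 windows) at least 4 and 0.0342% (12 windows) at least 6. Some cores of MT2A, MT1X, MT1H and MT1B also fell at like distances from the start. A core on the strand of the gene lay at positions -54 to -48 in MT2A and at -53 to -47 in MT1X, MT1H and MT1B, where the base just before the start is -1. A core on the other strand lay at -78 to -72 in MT1X and MT1H, at -79 to -73 in MT1B and at -88 to -82 in MT2A. MT4, another gene of the cluster, had cores on the other strand at -209 to -203 and -90 to -84 and 1 on its own strand at -196 to -190, and none of its cores lay near -53. SLC39A6 held 1 core, and none was found in the windows of MTF1, SLC30A5 or SLC39A10. MT1E, MT1DP, MT1F and SLC39A14 were not searched. A match is a run of letters and not a measured binding site, and the 8 cores of MT1H were found at a gene listed at 0.

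**Figure D1:**
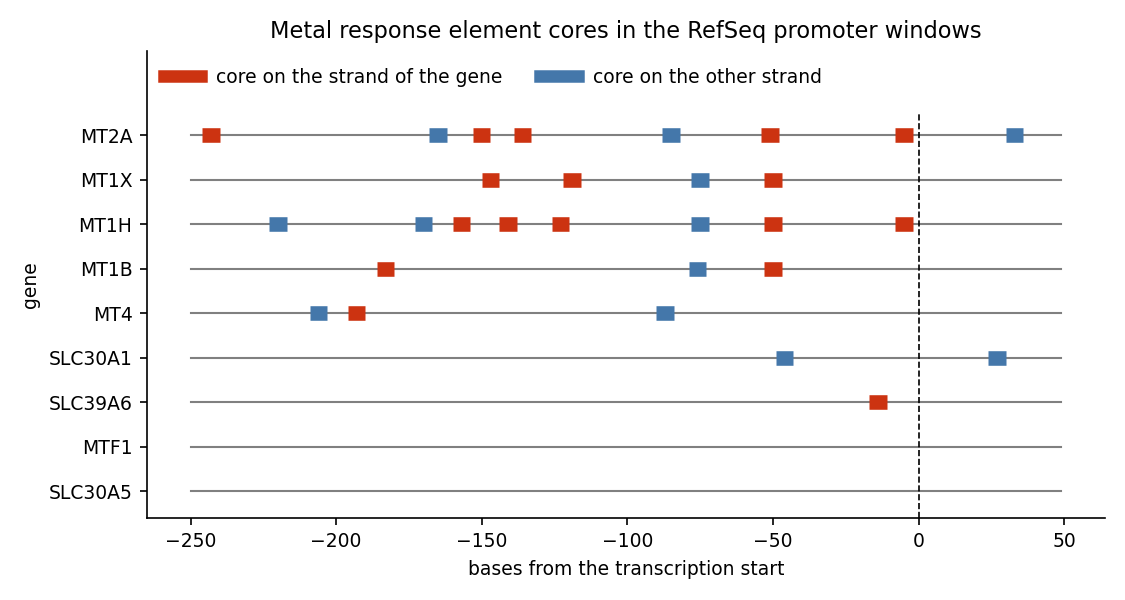
Metal response element cores in the RefSeq promoter windows of 9 genes, by distance in bases from the transcription start (x axis, 250 before to 49 after; dashed line, start). Red blocks are cores on the strand of the gene and blue blocks cores on the other strand, and MT2A and MT1H hold 8 each in this longer window against 2 in SLC30A1 and none in MTF1 or SLC30A5.

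MT2A was the metallothionein with the highest level in both lines. Its level was 51.7, 53.6 and 39.7 TPM in the A549-GFP libraries, against 116, 97.0 and 129 TPM in A549-TIPARP cells. All A549-TIPARP libraries were above all A549-GFP libraries, and the lowest of the former was 97.0 TPM against a highest of 53.6 TPM in the latter. On the deposited log2 TPM scale the mean was 5.58 ± 0.24 (SD, n = 3) in A549-GFP cells and 6.82 ± 0.21 in A549-TIPARP cells, a difference of 1.24 (SE 0.18) or 2.36-fold. Leaving out any 1 library gave differences of 1.11 to 1.35. Among the 13181 genes analysed, MT2A stood at the 76.9th to 79.4th percentile of a library in A549-GFP cells and at the 89.3rd to 92.8th in A549-TIPARP cells. In bulk RNA, a higher level in every cell and a larger share of cells with a high level cannot be told apart.

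MT1X, an isoform of the same fold, was next. Its level was 26.2, 15.6 and 20.4 TPM in the A549-GFP libraries, against 56.0, 39.3 and 44.7 TPM in A549-TIPARP cells, again with no overlap between the lines. The mean log2 TPM was 4.34 ± 0.37 (SD, n = 3) and 5.53 ± 0.26, a difference of 1.19 (SE 0.26) or 2.28-fold. The lowest A549-GFP value was that of replicate 2, and without that library the difference was 0.998, just under 2-fold.

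MT1DP was listed at 0 on the log2 scale (1 TPM or less) in all 3 A549-GFP libraries and at 1.90, 2.22 and 2.31 TPM in the A549-TIPARP libraries. Its mean log2 value was 1.10 ± 0.15 (SD, n = 3) above that floor, and it is counted below as past 2-fold on that basis alone. Values this near the floor carry no depth, and the difference was 0.65 with a pseudocount of 1 TPM. MT1E was listed at 0 in all 6 libraries.

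MTF1, the transcription factor that acts on these promoters, was at a lower level than MT2A, MT1X and SLC30A1 in every library. Its level was 3.83, 6.19 and 3.03 TPM in the A549-GFP libraries, against 3.09, 3.76 and 2.88 TPM in A549-TIPARP cells. The lines overlapped, and the mean log2 difference of -0.37 (SE 0.32) ranged from -0.08, when A549-GFP replicate 2 was left out, to -0.60, when replicate 3 of that line was.

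SLC30A1, the exporter of the plasma membrane, was on average lower in the A549-TIPARP libraries, unlike the metallothioneins. Its level was 37.0, 33.3 and 23.3 TPM in the A549-GFP libraries, against 21.4, 22.2 and 20.7 TPM in A549-TIPARP cells. Every A549-TIPARP library was below every A549-GFP library, although the gap between the nearest values, 23.3 and 22.2 TPM, was small beside the spread of the control libraries. The mean log2 TPM was 4.94 ± 0.35 (SD, n = 3) in A549-GFP cells and 4.42 ± 0.05 in A549-TIPARP cells, a difference of -0.51 (SE 0.21), that is 30.0% lower. Leaving out single libraries gave -0.71 to -0.38. SLC30A5, an exporter that loads zinc into the secretory pathway together with SLC30A6, was at 26.7, 44.1 and 20.7 TPM in the A549-GFP libraries, against 22.6, 24.8 and 28.0 TPM in A549-TIPARP cells. These values overlapped, and the log2 difference of -0.21 (SE 0.33) became 0.09 when A549-GFP replicate 2 was left out and -0.45 when replicate 3 of that line was. With a correction for GC content it was -0.07.

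The 3 importers all differed by less than SLC30A1. SLC39A6, which pairs with SLC39A10 at the plasma membrane, was at 27.8, 28.1 and 24.4 TPM in the A549-GFP libraries, against 26.2, 30.0 and 24.9 TPM in A549-TIPARP cells. Its log2 difference was 0.01 (SE 0.10), and 0.05 without A549-GFP replicate 2. With single libraries left out it ranged from -0.07 to 0.07, and with a correction for GC content it was 0.13. SLC39A10 was at 29.2, 27.2 and 24.5 TPM and at 18.9, 24.9 and 22.2 TPM, a log2 difference of -0.30 (SE 0.14) that was -0.19 without A549-TIPARP replicate 1 and -0.15 with a correction for GC content. The lines met only where the highest A549-TIPARP value, 24.9 TPM, passed the lowest A549-GFP value, 24.5 TPM. SLC39A14, which also carries iron and manganese, was at 51.1, 60.8 and 35.2 TPM and at 41.0, 40.2 and 38.6 TPM, so that the 3 A549-TIPARP values sat inside the range of the controls. Its log2 difference was -0.26 (SE 0.23), or -0.09 with A549-GFP replicate 2 left out and -0.48 with replicate 3 of that line left out.

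**Figure D2:**
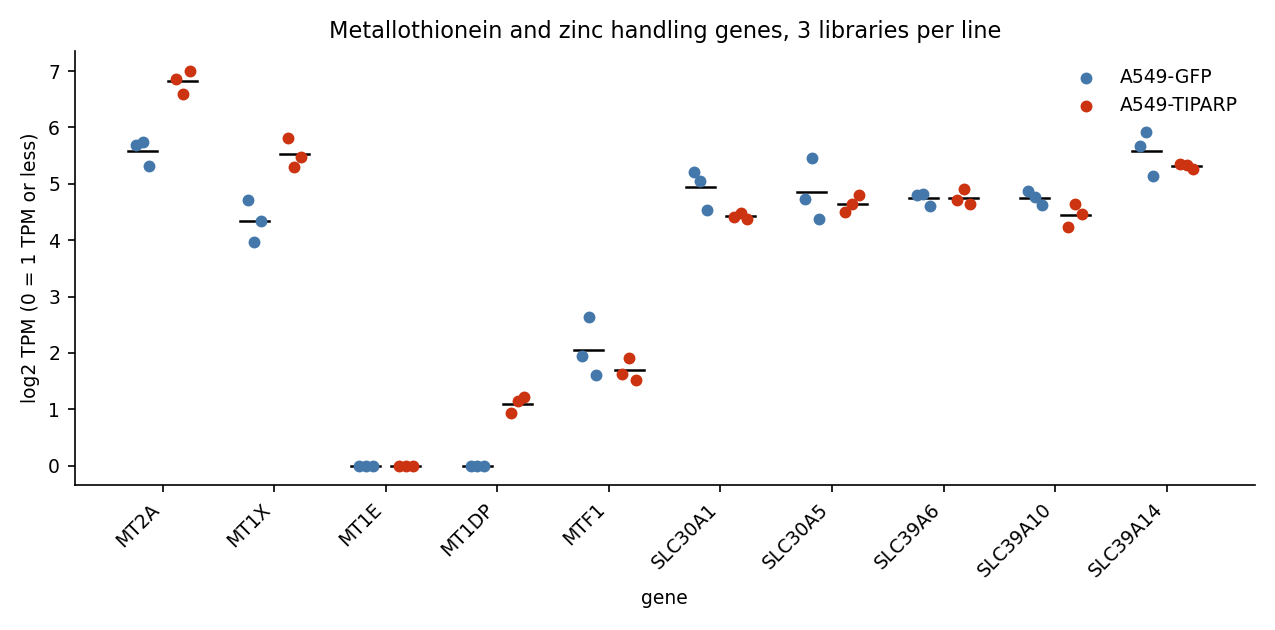
Level of each of the 10 genes in each library on the deposited log2 TPM scale (y axis, 0 stands for 1 TPM or less), with A549-GFP in blue, A549-TIPARP in red, 3 points a line and a bar at the mean. MT2A and MT1X are the genes above the floor whose red points all lie above the blue ones, and SLC30A1 the one whose red points all lie below.

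Among the 9 genes analysed, 3 (MT2A, MT1X and MT1DP) had a mean more than 2-fold higher in A549-TIPARP cells, a call made for 1.53% of all genes analysed, and 0 were more than 2-fold lower, a call made for 0.432%. The libraries did not overlap in the upward direction for the same 3 genes, against 5.36% of all genes, and in the downward direction for SLC30A1 alone, against 3.54%. Since the genes were chosen with this contrast known, nothing is read from those counts. In the limma fit over all 13181 genes, 2 genes, TIPARP and RBM14-RBM4 (named after their values were seen), had a Benjamini-Hochberg adjusted p under 0.05, or 0.0152%, and 508 genes had an unadjusted p under 0.05, or 3.85%. The median log2 difference was -0.21 over the 9 genes and -0.07 over all genes analysed. Both turned without A549-GFP replicate 2, to 0.05 over the 9 and 0.05 over all, so no direction is read from either.

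Because TPM is a level per transcript length, the genes can also be set in order within a line. In A549-GFP cells MT2A (geometric mean 47.9 TPM) and SLC39A14 (47.8 TPM) came first, then SLC30A1 (30.6), SLC30A5 (29.0), SLC39A10 (26.9), SLC39A6 (26.7), MT1X (20.3) and MTF1 (4.16). The ranges of neighbours in that order overlapped down to MT1X, so no gene was separated from the next, while MT1X and MTF1 were. Genes farther apart in the order could be separate, as MT2A (39.7 TPM or more) was from SLC30A1 (37.0 TPM or less). In A549-TIPARP cells MT2A (113 TPM) stood apart from MT1X (46.2 TPM), whose range met that of SLC39A14 (39.9 TPM). SLC39A6 (26.9 TPM), SLC30A5 (25.0), SLC39A10 (21.9) and SLC30A1 (21.4) followed with overlapping ranges, and MTF1 (3.22) and MT1DP (2.14) were separate at the bottom. SLC30A1 thus ranked 3 of the 10 in the control line and 7 in A549-TIPARP cells.

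Ratios of 2 genes within a library do not depend on how that library was scaled. The ratio of MT2A to SLC30A1 was 1.40, 1.61 and 1.71 in A549-GFP cells and 5.44, 4.37 and 6.22 in A549-TIPARP cells, 3.38-fold apart in geometric mean. MT1X over SLC30A1 was 0.709, 0.469 and 0.876 in the controls and 2.62, 1.77 and 2.16 in A549-TIPARP cells. For both pairs the lines were farther apart than the libraries within a line. The genes were chosen with the higher MT2A and MT1X and the lower SLC30A1 already known. These ratios restate those differences, and nothing further is read from them. MT2A over MTF1 was 13.5, 8.67 and 13.1 against 37.6, 25.8 and 44.7. In contrast, the ratio of MT1X to MT2A was 0.508, 0.291 and 0.513 in A549-GFP cells and 0.482, 0.406 and 0.347 in A549-TIPARP cells, with the ranges overlapping. The summed level of MT2A, MT1X and MT1F was 82.9, 75.7 and 66.0 TPM in the controls and 184, 144 and 184 TPM in A549-TIPARP cells, and MT2A made up 60.3% to 70.9% of it in every library.

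**Figure D3:**
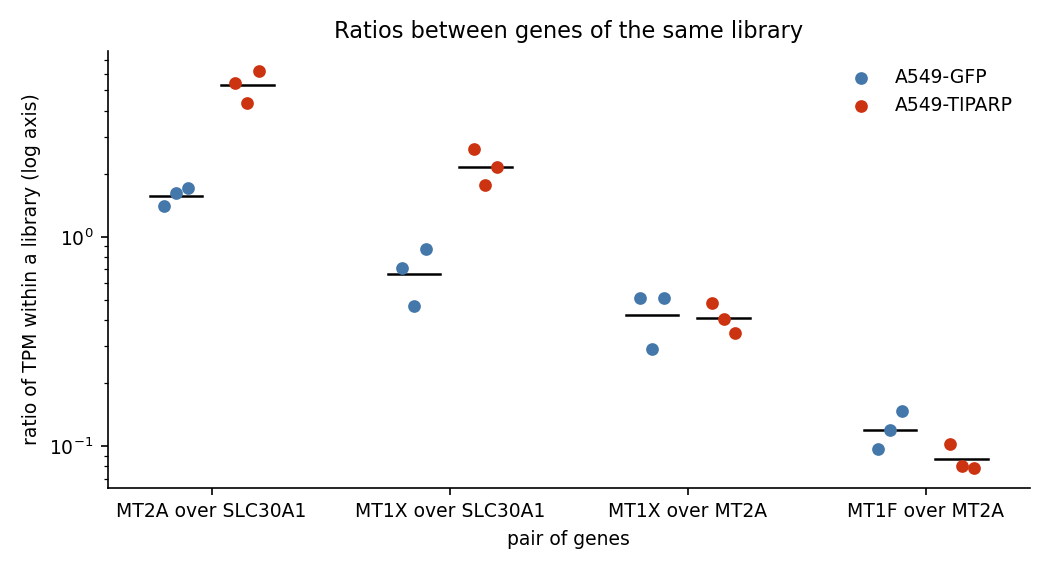
Ratio of the TPM of 2 genes within each library (y axis, log scale), for 4 pairs of genes, with A549-GFP in blue, A549-TIPARP in red and a bar at the geometric mean of 3 libraries. The red points of MT2A over SLC30A1 (4.37 to 6.22) and MT1X over SLC30A1 (1.77 to 2.62) lie above all blue points, and those of MT1X over MT2A overlap them.

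The other metallothioneins were read from a list of 14 genes and pseudogenes, 12 of which were listed at 0 in all 6 libraries. MT1A was at 1.17 and 1.18 TPM in A549-TIPARP replicates 2 and 3 and at the floor elsewhere, and was not analysed. MT1F was the only one analysed, at 5.01, 6.42 and 5.85 TPM in the A549-GFP libraries, against 11.9, 7.77 and 10.1 TPM in A549-TIPARP cells. All its A549-TIPARP libraries were above all A549-GFP libraries. The log2 difference was 0.77 (SE 0.21), or 1.71-fold, with an unadjusted limma p of 0.0173 and an adjusted p of 0.983, so that it did not pass the threshold over all genes. MT1G, MT1M, MT1H and MT1B were among those listed at 0 in both lines.

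No zinc transporter, among the 10 genes or beyond them, passed 2-fold. Of the 24 transporters of both families, SLC30A1, SLC30A5 and the importers above included, 18 were analysed, 4 with a mean above and 14 with a mean below that of the controls, and a median log2 difference of -0.11. Over all genes analysed, 5285 had a higher and 7896 a lower mean. Without A549-GFP replicate 2 the 18 split into 10 above and 8 below with a median of 0.04, and all genes into 7503 above and 5610 below, so that the downward count rests on that library. The highest of the other exporters, SLC30A9, was at 35.3, 42.4 and 24.0 TPM in the A549-GFP libraries, against 30.3, 30.2 and 32.8 TPM in A549-TIPARP cells. The highest of the other importers, SLC39A7, which releases zinc from the endoplasmic reticulum, was at 132, 141 and 116 TPM and at 127, 123 and 130 TPM. Both overlapped between the lines. The largest difference among the other transporters, 0.83 (SE 0.43) for SLC30A3 (named after its values were seen), belonged to a gene at the floor in A549-GFP replicate 2 and at 3.13 TPM or less in every library, and was 0.47 without that library. The lowest were -0.42 (SE 0.18) for the importer SLC39A8 and -0.35 (SE 0.22) for the exporter SLC30A6, also named after their values were seen. Both overlapped between the lines, and without A549-GFP replicate 2 they were -0.37 and -0.21. Of the 18, 1 had lines that did not overlap (SLC30A1, downward, beside 3.54% of all genes), and nothing is read from that count.

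**Figure D4:**
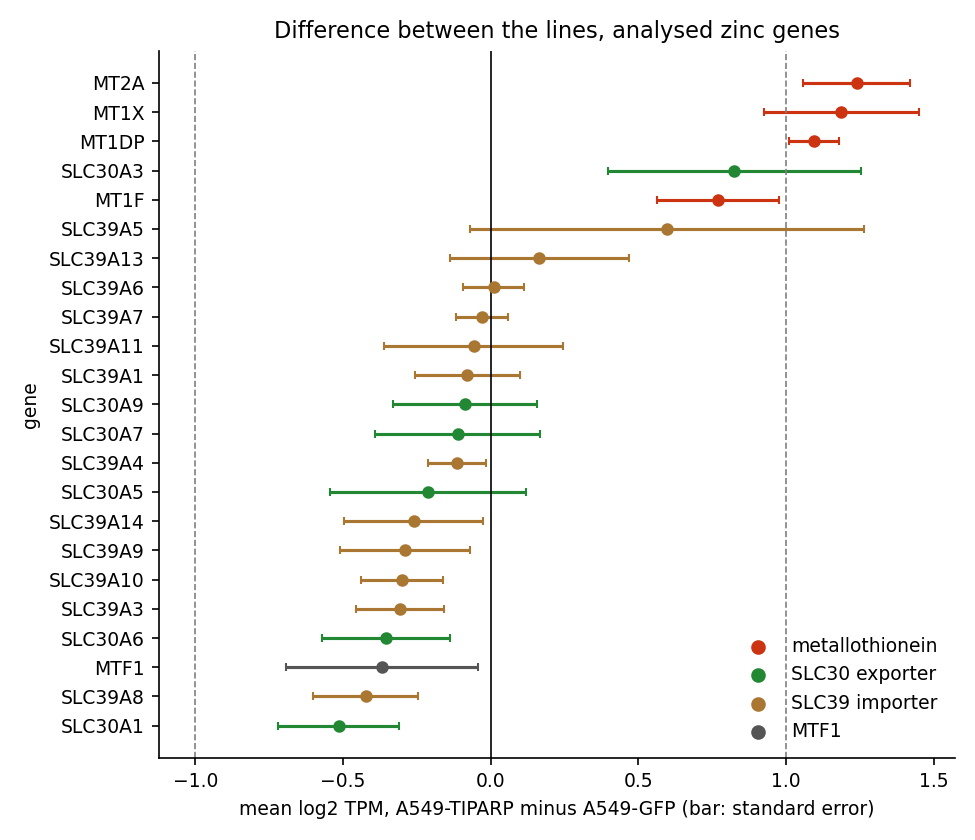
Difference of mean log2 TPM, A549-TIPARP minus A549-GFP (x axis), with its standard error from 3 libraries a line, for each metallothionein, zinc transporter and MTF1 that was analysed; dashed lines mark 2-fold. The metallothioneins sit at 0.77 to 1.24 and SLC30A1 is lowest at -0.51; the bar of MT1DP is short because its control values are all at the floor.

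Genes of copper and iron handling and genes that metals or oxidants induce were read beside the zinc genes. All 13 copper genes were analysed, with a median log2 difference of 0.003 (0.06 without A549-GFP replicate 2). SOD1, the copper and zinc superoxide dismutase and the highest of them, was at 474, 398 and 501 TPM in the A549-GFP libraries, against 474, 527 and 409 TPM in A549-TIPARP cells. Of 15 iron genes 14 were analysed, with a median of -0.11 (-0.05 without that library), and FTL, the ferritin light chain and the highest of them, overlapped between the lines at a log2 difference of 0.09 (SE 0.34), which turned to -0.21 without A549-GFP replicate 2. Of 16 heat shock and oxidative stress genes 15 were analysed, with a median of -0.18 (-0.20 without A549-GFP replicate 2). Of the 15, 2 had a higher and 13 a lower mean, with that library and without it. Over all genes analysed 5285 were higher and 7896 lower, and 7503 and 5610 without that library. The split was not tested. The highest of the 15 by mean value, NQO1, a quinone reductase, was at 1487, 1486 and 1434 TPM in the A549-GFP libraries, against 1321, 1482 and 1277 TPM in A549-TIPARP cells. HSPA8 was above it in A549-GFP replicate 1, at 1611 TPM. HMOX1, the heme oxygenase that cadmium strongly induces, was at 313, 146 and 251 TPM and at 264, 252 and 241 TPM, and was singled out after its values were seen. Its log2 difference of 0.16 (SE 0.33) turned to -0.16 without A549-GFP replicate 2.

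Glucocorticoid targets were read because MT2A is known as one. Of 9 genes 8 were analysed, with a median log2 difference of -0.18 (0.11 without A549-GFP replicate 2) and 0 past 2-fold, and CEBPD, the highest of them by mean value, was at 92.8, 97.4 and 92.5 TPM in the A549-GFP libraries, against 121, 91.5 and 136 TPM in A549-TIPARP cells. SGK1, a kinase gene singled out after its values were seen, was lower in every A549-TIPARP library than in any control, with a log2 difference of -0.49 (SE 0.17). Of 9 genes beside the metallothionein cluster on chromosome 16, 6 were analysed, with log2 differences of -0.36 to 0.34 and a median of 0.07 (0.13 without A549-GFP replicate 2). HERPUD1, the highest of these neighbours, was at 71.0, 133 and 61.5 TPM and at 88.9, 69.6 and 120 TPM, and like CEBPD it overlapped between the lines.

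Together the 8 lists held 95 genes, of which 70 were analysed. None was past 2-fold in either direction, and 0 had an adjusted p under 0.05 in limma, the only tool run. At an unadjusted p under 0.05 there were 3, namely MT1F and TF with a higher mean and SRXN1 with a lower one, which were named after their values were seen; 3.85% of all genes analysed did so, and nothing is read from the 3. TF, which encodes transferrin, was at 2.42, 2.43 and 2.70 TPM in A549-TIPARP cells and at 1.78 TPM or less in the controls. SRXN1, which repairs oxidised peroxiredoxins, was at 459, 536 and 345 TPM in the A549-GFP libraries, against 310, 317 and 258 TPM in A549-TIPARP cells, a log2 difference of -0.58 (SE 0.21). In 2 genes of the lists all A549-TIPARP libraries were above the controls and in 4 all were below, shares to be read beside 5.36% and 3.54% of all genes analysed, and the median log2 difference over the 70 was -0.09, beside -0.07 over all genes, and -0.06 beside 0.05 without A549-GFP replicate 2.

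**Figure D5:**
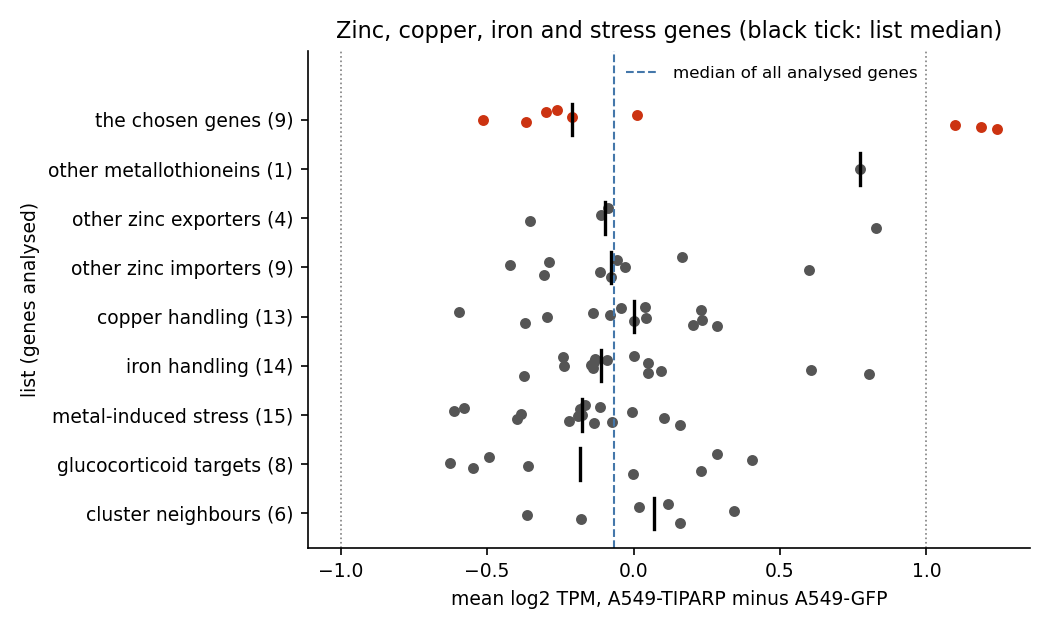
Difference of mean log2 TPM, A549-TIPARP minus A549-GFP (x axis), of each analysed gene of the chosen genes (red) and of 8 lists (grey), with the number analysed in parentheses, a black tick at the list median, a dashed line at the median of all genes and dotted lines at 2-fold. Only 3 points, MT1DP, MT1X and MT2A, lie beyond 2-fold.

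The pattern of MT2A over the 6 libraries was set against that of 8531 genes with a mean log2 TPM of at least 3, by Pearson r on log2(TPM + 1), as a description, since all genes of a library share its scaling and composition. MT2A was also chosen with its difference between the lines known, and r over both lines largely restates that difference. Genes that differ between the lines therefore rank high or low, and no shared regulation is read from r. The genes most like it were CAPN1 (r = 0.993), FARP1 (0.990), TIPARP itself (0.989), ERICH5 (0.986) and SLC25A29 (0.986), and 29 genes reached 0.95. MT1X stood at rank 106 with r = 0.892. At the other end SLC39A10 had r = -0.70 and SLC30A1 r = -0.64, and SLC39A6 (0.04) and SLC30A5 (-0.11) were near 0. CAPN1, a calcium-dependent protease, followed MT2A closely with a small difference in level, from 124, 131 and 120 TPM in A549-GFP cells to 155, 148 and 157 TPM in A549-TIPARP cells.

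Metallothionein transcripts are short (the longest annotated ones have 903 bases for MT2A and 1727 for MT1X), and the difference between the lines was read by class of transcript length. The median log2 difference was 0.006 over 580 genes, small RNAs left out, whose longest transcript is under 1000 bases, -0.033 over 4353 genes of 1000 or more but under 3000 bases and -0.086 over 7769 longer ones. The share more than 2-fold higher was 3.10%, 1.79% and 1.18% in these classes. The medians of the classes were not computed without A549-GFP replicate 2. Leaving that library out moved the median over all genes from -0.07 to 0.05, so no trend with length is read from them. The part of transcript length in the metallothionein differences was not tested.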

How the data were processed

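Total RNA of 6 samples was made into libraries with a stranded mRNA kit and sequenced as paired ends. The authors used Strand NGS at its default settings for alignment to the transcriptome (hg38) and deposited, per library, the log2 of the TPM of 53826 entries. The software version, the annotation release, and whether counting used strand or shared reads are not given in the sources used here. TPM of 1 or less had been set to 1, and the values hold no counts, so depth and counting error are unknown and the planned count tests (edgeR, DESeq2) were not run.

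Groups and replicate numbers came from the sample titles. Entries above 2 TPM in at least 1 library were analysed (13181). The fold change was the difference of mean log2 TPM. Tests used limma (3.58.1, under R 4.3.3) with a variance trend and no block, fitted to log2(TPM + 1) and adjusted by Benjamini-Hochberg; the script was tested on simulated data. The 10 genes and the 8 lists were chosen with earlier results of these data known. Named genes were the 10, TIPARP, list genes past 2-fold or otherwise the highest of a list, and the 5 genes most like MT2A; a few others were picked after their values were seen. Motifs were searched in RefSeq promoters, and coding sequences came from GENCODE 44. Alternatives were other pseudocounts, filters, scalings, a GC correction, a replicate block, and each library left out in turn.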

Additional observations from a re-analysis of the deposited data

How the results depend on the processing

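MT2A was past 2-fold under all 16 alternatives (log2 difference 1.11 to 1.35), MT1X under 15 of 16 (0.998 to 1.37; the exception was A549-GFP replicate 2 left out), and SLC30A1 stayed lower (-0.71 to -0.38); other filters and limma settings cannot change a fold. MT1DP was 0.65 with a pseudocount of 1 and 1.23 with small RNA genes left out, and was not tested when 2 TPM was required in 3 libraries. The count of the 10 genes past 2-fold higher was 3, and 2 with a pseudocount of 1, with that filter, or without A549-GFP replicate 2; 0 were past 2-fold lower throughout. SLC30A5 changed sign under 1 alternative and SLC39A6 under 2. The lists had 0 genes past the adjusted p under every alternative and 0 past 2-fold, except for 1 when single libraries were left out: SLC30A3 without A549-GFP replicate 1, SLC40A1 without replicate 2, TSC22D3 without replicate 3, and SLC39A5 without A549-TIPARP replicate 2.

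Over all genes, 2 passed the adjusted p, against 1 with no filter (14618 entries above the floor), 1 with the replicate block, 1 with the GC correction and replicate block, and 1 to 3 with single libraries left out. Genes more than 2-fold higher numbered 202, against 78 with a pseudocount of 1 and 228 to 383 with single libraries left out. Genes more than 2-fold lower numbered 57, against 20 with a pseudocount of 1, 37 with median-ratio rescaling and 39 to 200 with single libraries left out. The cause of these shifts was not tested, beyond the pull of a pseudocount on low values. What the experiment numbers mark is not stated, and 3 libraries a line are too few to show whether they pair the libraries. The deviations of same-numbered libraries correlated at 0.41, -0.49 and -0.36, and 1 of the 6 libraries correlated best with its own number. The replicate block took the genes with an unadjusted limma p under 0.05 from 508 to 414. The count tests were not run for want of counts, and without depth the values near 1 TPM have no known error.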
